A study of Mus musculus with 45 samples.

Results

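The genes described here are 8 that uterine and blood cells are known for: Cryab, Htra1, Cebpb, Dcn, Hoxa10, the alpha globin pair Hba-a1 and Hba-a2 (1 joined row in the tables), Cd52 and Srgn. They were followed through laser-captured sections of mouse embryos shortly after implantation, with the question of which sections hold them and whether they move together, as maternal tissue carried into a section would make them do. The 8 were chosen by symbol, with their measured levels in these sections already known, so their levels are a description and carry no test. All 8 had a row in the E5.75 table, 7 in the E5.5 table, which had no row for Dcn, and 6 in the E5.25 table, which had none for Cebpb or Hoxa10. The tables together held 15997 genes.

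After implantation the stroma of the uterus turns into decidua, a tissue of large secretory cells with many small vessels and maternal leukocytes, which surrounds the embryo. Trophoblast cells of the ectoplacental cone, at the end of the embryo next to the incoming maternal blood, invade the decidua. The embryo itself makes no blood cells until later, in the yolk sac, where the first red cells carry embryonic and then adult globins. Embryonic cells can also use genes known from decidua or blood, so a single such gene does not name its source.

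Untreated embryos had been taken out of the decidua at 3 ages (E5.25, E5.5 or E5.75, in days of development), embedded, frozen and cut, and captured pieces were sequenced with the Smart-seq2 protocol, which copies whole transcripts of a few cells. The labels list 2 libraries marked VE (the usual short form of visceral endoderm, the outer cell layer) from sections 6 and 7 of E5.75, 7 sections of E5.25, 17 section samples of E5.5 and 19 sections of E5.75. The tables held both VE libraries, 7 section columns at E5.25, 10 at E5.5 (sections 1, 2 and 4 to 9, and parts A and B of section 10) and 17 at E5.75, and the E5.75 sections numbered 9 and 13 were not analysed here. The labels name the embryo of each stage in the singular and give no number of embryos, so errors and p-values are taken to be between sections, not between embryos. The labels do not give the end of the embryo at which section 1 was cut, and no genotype or strain was used here.

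All levels below are log2(FPKM + 1), FPKM being fragments per kilobase of transcript scaled to the mapped total, so a log2 value of 1 is an FPKM of 1. The tables hold no read counts, so depth is unknown and a gene at 0 is only listed at 0. In captured tissue, fewer cells of a type and less RNA per cell cannot be told apart. Libraries differed in quality: between 1496 and 8217 genes reached an FPKM of 1, and Rn45s, the ribosomal RNA precursor, took between 0.555% and 69.8% of a library's FPKM. The libraries that stand apart with the most Rn45s were section 1 of E5.5 at 69.8%, both VE libraries at 62.2% (section 6) and 48.8% (section 7), section 2 of E5.5 at 56.4% and section 1 of E5.75 at 52.8%. Section 1 of E5.5 also listed the housekeeping gene Gapdh at 0. As landmarks, the summed FPKM of 18 trophoblast genes was 96.8 in section 2 and 3189 in section 19 of E5.75, and that of 11 epiblast genes, the source of the embryo proper, was 807 in section 5 and 88.3 in section 19. The most abundant genes of these lists over the E5.75 sections were Krt18 and Rhox5 for trophoblast and Dnmt3b and Nanog for epiblast.

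The alpha globin row joins neighbouring copies on chromosome 11 (GRCm38, the sequence of mm10; GENCODE M21 gene bounds 32283511 to 32284465 for Hba-a1 and 32296489 to 32297298 for Hba-a2, both on the plus strand). The copies are shown because they cannot be told apart by short reads over nearly all of the coding sequence. Their annotated coding sequences, 429 bases each, differ at 1 base, C381T (Hba-a1 base first, counted from 1 at the start codon), and are 99.8% identical. Coding bases 356 to 406 of each, 5′ to 3′, have that base in capitals:
Hba-a1: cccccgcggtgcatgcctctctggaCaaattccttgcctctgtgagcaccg
Hba-a2: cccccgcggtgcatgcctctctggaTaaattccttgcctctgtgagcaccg
The beta globin row is joined in the same way under the symbols Hbb-b1 and Hbb-b2. The other members lie on separate chromosomes apart from Dcn and Srgn, both on chromosome 10: Cryab on 9, Htra1 on 7, Cebpb on 2, Hoxa10 on 6 and Cd52 on 4.

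**Figure D1:**
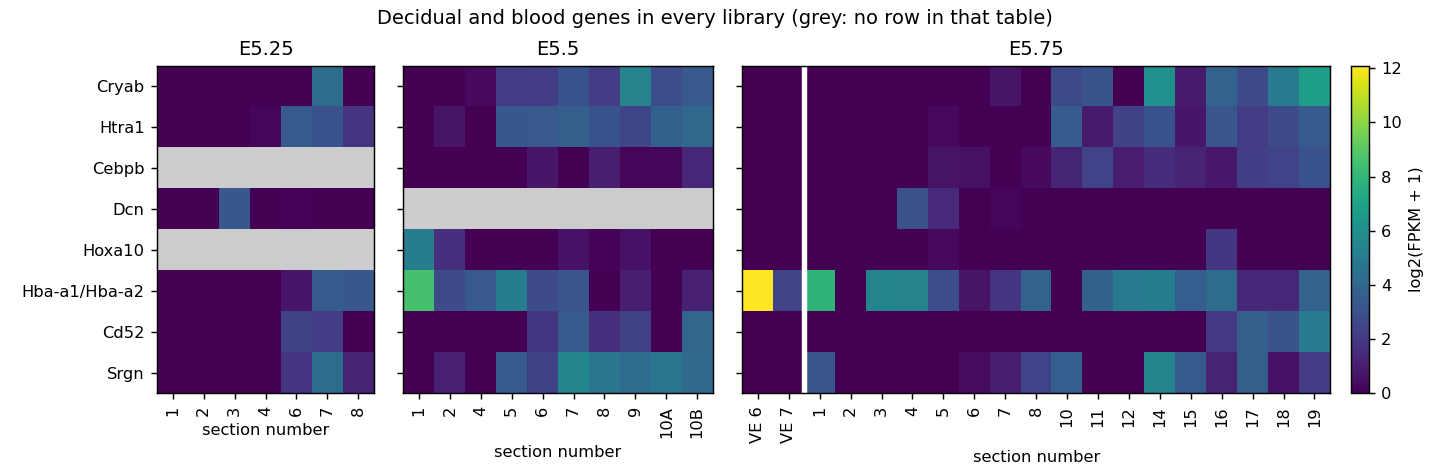
Level of each of the 8 genes as log2(FPKM + 1), shown by colour, in every library of the 3 stages, with VE libraries left of the white line and sections in number order. Cryab, Htra1, Cebpb, Cd52 and Srgn are brighter to the right, whereas the brightest cell is alpha globin at 12.06 in the VE library of section 6.

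Cryab and Htra1 were found almost only in the higher section numbers of each stage. Cryab encodes the small heat shock protein alpha B crystallin, a chaperone. At E5.75 its log2 value had a lowest value of 0, a median of 0.65 and a highest value of 6.81 over the 17 sections. It was listed at 0 in sections 1 to 6, and it was 2.70 in section 10, 3.14 in section 11, 6.07 in section 14, 3.84 in section 16, 4.96 in section 18 and 6.81 in section 19. Sections 12 and 15 broke the run with 0 and 0.89, and both VE libraries listed it at 0. At E5.5 it was 0 in sections 1 and 2, 0.29 in section 4, between 2.09 and 3.07 in sections 5 to 8, 5.41 in section 9, 2.88 in part A and 3.40 in part B of section 10. The fitted change of Cryab from first to last section, on the log2 scale, was 5.69 ± 1.13 at E5.75 (standard error, n = 17 sections) and 4.47 ± 0.99 at E5.5 (n = 9). At E5.25 only section 7 held it, at 4.28, and the other 6 sections listed 0.

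Htra1, a secreted serine protease that cuts matrix proteins, began in the same part of the series. At E5.75 it reached an FPKM of 1 in 7 sections, the first of them section 10 at 3.54 and the last section 19 at 3.47, with a median of 0.75, a lowest value of 0 and 0 in each VE library. The sections below 10 held at most 0.26, in section 5. At E5.5 its values were 0 in section 1, 0.62 in section 2, 0 in section 4 and between 2.51 and 4.02 from section 5 on, a step rather than a slope. At E5.25 it was 0 in sections 1 to 3, 0.21 in section 4, 3.44 in section 6, 3.03 in section 7 and 1.87 in section 8. Its fitted change was 3.55 ± 0.68 at E5.75 (n = 17), 3.77 ± 1.06 at E5.5 (n = 9) and 3.32 ± 1.05 at E5.25 (n = 7). With detected genes as a covariate it was 1.03 at E5.5 and 1.41 at E5.25, and without sections 1 and 2 of E5.5 it was 2.10.

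Cebpb encodes a transcription factor that uterine stroma needs to turn into decidua, and its levels were low. At E5.75 it ran from 0 to a highest value of 3.07 in section 19, with a median of 0.78. Sections 1 to 4 and 7 listed it at 0, sections 5, 6 and 8 held 0.64, 0.54 and 0.30, and each section from 10 on held 0.78 or more. Both VE libraries listed 0. The change was 2.57 ± 0.43 (n = 17). At E5.5 it stayed at or below 1.36, its value in part B of section 10, and it passed an FPKM of 1 in 2 of 10 columns.

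Dcn and Hoxa10, which mark stroma most directly by their known roles, did not follow these genes. Dcn encodes decorin, a small proteoglycan that binds collagen in connective tissue. It was 2.995 in section 4, 1.45 in section 5 and 0.16 in section 7 of E5.75, with 0 in the other 14 sections and both VE libraries, and 3.31 in section 3 of E5.25 with at most 0.14 elsewhere. None of the sections that held Cryab at an FPKM of 1 held Dcn above 0 at either stage. Hoxa10, a homeobox gene that the uterus needs for implantation, was 5.08 in section 1 and 1.64 in section 2 of E5.5 and at most 0.60 in the other columns of that stage. At E5.75 it was 1.92 in section 16 and 0.25 in section 5, with 0 in the other 15 sections and in both VE libraries. Its fitted change at E5.5, -3.28 ± 1.36 (n = 9), rested on section 1: without it the change was -0.81, and without sections 1 and 2 it was 0.28.

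Cd52 and Srgn, both known from leukocytes, lay in the higher sections to a different extent. Cd52 encodes a short surface protein of lymphocytes and other leukocytes. At E5.75 it was listed at 0 in both VE libraries and in every section analysed up to number 15, and it was 1.998 in section 16, 3.67 in section 17, 3.12 in section 18 and 4.98 in section 19. The 4 sections that held it were thus the last 4, and its fitted change was 3.51 ± 0.87 (n = 17). At E5.5 it was 0 in sections 1, 2, 4 and 5, 1.98 in section 6, 3.42 in section 7, 1.69 in section 8 and 2.40 in section 9. The parts of section 10 disagreed, with 0 in part A and 4.01 in part B. Of the 1862 genes whose higher part there had a log2 value from 3 to 5, 34 (1.83%) were at 0 in the other part. At E5.25 Cd52 was 2.37 in section 6, 2.18 in section 7 and 0 in the other 5 sections.

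Srgn encodes serglycin, the proteoglycan core of secretory granules in blood cells. At E5.5 it was 0 in sections 1 and 4, 1.09 in section 2, 3.46 in section 5, 2.40 in section 6, 5.58 in section 7 and between 4.17 and 4.76 after that. At E5.75 it was scattered, with a lowest value of 0, a median of 1.01 and a highest value of 5.45 in section 14. It was 3.24 in section 1, 0 in sections 2 to 5 and again in sections 11 and 12, and 2.15 in section 19, with 0 in both VE libraries. Its fitted change was 5.19 ± 1.26 at E5.5 (n = 9), 1.95 ± 1.27 at E5.75 (n = 17) and 3.03 ± 1.34 at E5.25 (n = 7), where section 7 held 4.27, section 6 1.84 and section 8 1.17. Without section 7 the change at E5.25 was 1.72.

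Alpha globin, the alpha chain of adult haemoglobin, had its 3 highest values in the VE library of section 6 and in section 1 of E5.5 and of E5.75, each the library with the highest Rn45s level of its kind and stage. It stood at 12.06 in the VE library of section 6 and 2.47 in that of section 7, against 0.63 in section 6 and 1.83 in section 7. With 2 libraries against 2, and a range of 2.47 to 12.06 within VE, the values are given without a test. Over the 17 sections of E5.75 the lowest value was 0, the median 3.72 and the highest 7.87, in section 1. At E5.5 it was 8.60 in section 1, 2.80 in section 2, 3.39 in section 4, 5.12 in section 5 and at most 3.21 from section 6 on. At E5.25 the order was the other way: 0 in sections 1 to 4, 0.73 in section 6, 3.52 in section 7 and 3.29 in section 8.

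The fitted change of alpha globin was 3.68 ± 0.98 at E5.25 (n = 7), -6.15 ± 1.74 at E5.5 (n = 9) and -1.03 ± 1.70 at E5.75 (n = 17). Without section 1 the change was -3.49 at E5.5 and 0.39 at E5.75, where the direction turned. A covariate for detected genes gave 0.84 at E5.75. The correlation of alpha globin with log2 Rn45s was 0.85 over the 10 columns of E5.5 and 0.56 over the 17 sections of E5.75, as a description, since both are shares of the same library. Sections 1 and 2 of E5.25, with 26.2% and 23.7% of FPKM in Rn45s, listed it at 0, and section 2 of E5.5, with 56.4%, held 2.80. Whether library quality has a part in these values was not tested.

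Red cells make alpha and beta chains together, and the beta globin row was at or near 0 in the same libraries. It was 0 in the VE library of section 6, in section 1 of E5.5 and in section 1 of E5.75, where alpha globin had its 3 highest values. In all libraries the highest value of the Hbb-b1Hbb-b2 row was 2.40, in section 11 of E5.75, where alpha globin was 3.72. The mitochondrial iron carrier Slc25a37, which red cell precursors use strongly, was 7.66 in the VE library of section 6 and 4.84 in section 1 of E5.5. It was the only 1 of the 7 red cell rows at an FPKM of 1 in the VE library of section 6, and none of the 7 was in that of section 7. Of the 18 symbols in the red cell list, which included embryonic globins, 7 rows were present at E5.75, 6 at E5.5 and 4 at E5.25.

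**Figure D2:**
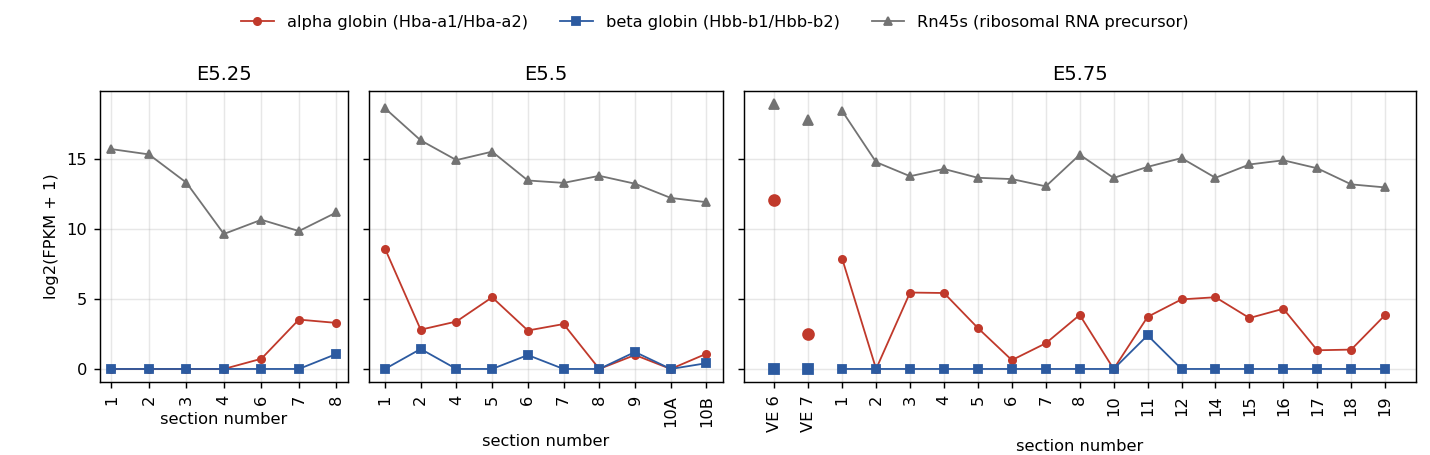
Log2(FPKM + 1) of the joined alpha globin row, the joined beta globin row and Rn45s in each library of the 3 stages, with unconnected VE libraries at the left of E5.75. Alpha globin peaks at 12.06, 8.60 and 7.87 stand over beta globin values of 0; Rn45s is highest in those same libraries within E5.5, within the E5.75 sections and within VE.

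The number of members held differed between libraries, as did the number of all genes. At E5.75, 6 of the 8 reached an FPKM of 1 in sections 16, 17 and 19, 5 in sections 14 and 18, none in sections 2 and 6, and 1 in each VE library, alpha globin in both. At E5.5, 6 of 7 did so in part B of section 10 and 5 in sections 6, 7 and 8, against 1 in section 4. At E5.25, 5 of 6 did so in section 7, and none in sections 1, 2 and 4. No library held all members of its table. Genes with a row numbered 10176 at E5.25, 13060 at E5.5 and 13618 at E5.75. At E5.75, 8217 of them reached an FPKM of 1 in section 17, 7178 in section 16 and 6916 in section 19. There were 7718 in section 14 and 8200 in section 18, against 3424 in section 2 and 7556 in section 6. The VE libraries had 1496 (section 6) and 2147 (section 7). At E5.5 there were 6467 in part B of section 10, 6222 in section 6, 6379 in section 7 and 5950 in section 8. Section 4 had 4621, and part A of section 10, with 3 members, had 6387. At E5.25 there were 5636 in section 7, 2607 in section 1, 3374 in section 2 and 2046 in section 4.

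Pairs of members were then compared across sections, wherever both reached an FPKM of 1 in at least 3 columns. At E5.75 there were 15 such pairs with a median Pearson r of 0.42 and a range of -0.19 to 0.82, and at E5.5 there were 10 with a median of 0.61 and a range of -0.64 to 0.90. The closest pairs at E5.75 were Cryab with Cebpb (0.82) and Cryab with Htra1 (0.82, n = 17 sections), and at E5.5 Htra1 with Srgn (0.90, n = 10 columns). All 4 pairs below 0 at E5.5 and all 4 at E5.75 had alpha globin as 1 partner. Without section 1 of E5.75, alpha globin had r of 0.06 with Cryab, 0.003 with Htra1 and -0.03 with Srgn, each of the opposite sign. At E5.25 only Htra1 and Srgn could be paired, at 0.85 over 7 sections. The sections of a stage share gradients of tissue and of library quality, so these values are a description and no p is given.

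**Figure D3:**
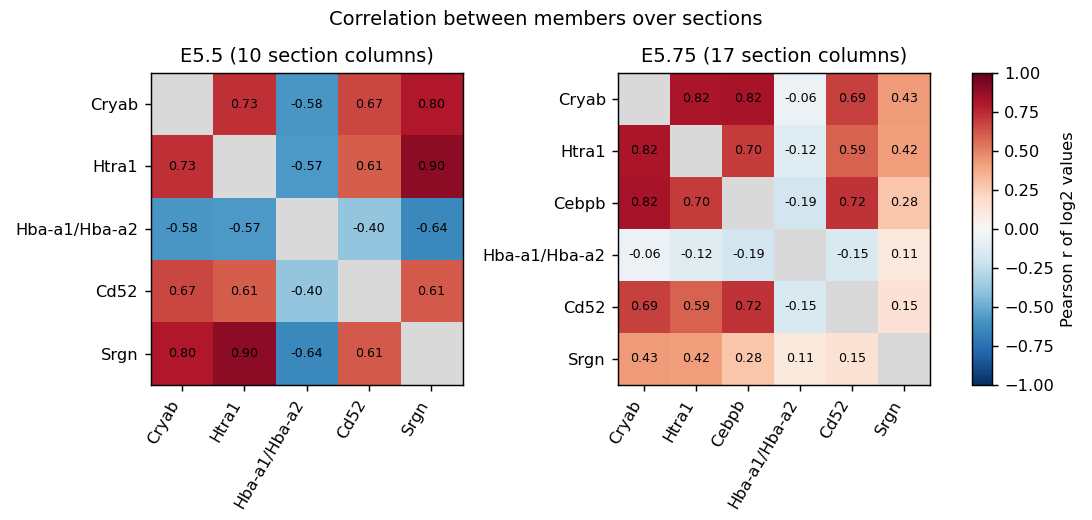
Pearson r between members over the section columns of E5.5 (10 columns) and E5.75 (17 columns), from log2(FPKM + 1). At E5.5 the alpha globin row is negative with the other 4 genes and they are positive with each other, and at E5.75 the highest values join Cryab, Htra1 and Cebpb.

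The members of the higher sections were also compared with trophoblast. Between Cryab, Htra1, Cebpb, Cd52 and Srgn, r of the pairs ran from 0.15 to 0.82 at E5.75. Without Cebpb, it ran from 0.61 to 0.90 at E5.5. With the log2 sum of the 18 trophoblast genes over the 17 sections of E5.75, r was 0.85 for Cebpb, 0.82 for both Htra1 and Cryab, 0.67 for Cd52, 0.39 for Srgn and -0.26 for alpha globin. At E5.5 it was 0.88 for Htra1, 0.84 for Srgn, 0.83 for Cryab, 0.72 for Cd52 and -0.67 for alpha globin (n = 10 columns). With the log2 sum of the parietal endoderm list at E5.75, r was 0.57 for Srgn. For Cryab, Htra1, Cebpb and Cd52 it was between 0.17 (Cd52) and 0.34 (Htra1). With the number of genes detected at E5.5, r was between 0.66 for Cd52 and 0.86 for Htra1 among Cryab, Htra1, Cd52 and Srgn, and -0.83 for alpha globin. At E5.75 it was between 0.13 for Srgn and 0.60 for Cebpb, and -0.31 for alpha globin. What trophoblast or detection contribute to the members' levels was not tested.

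The genes whose levels were most like a member's were taken by Pearson r among genes at an FPKM of 1 in at least 3 columns. For Cryab at E5.75 they were Hopx (0.91), the keratin Krt19 (0.91) and Prl6a1, a prolactin-family gene (0.91), out of 8464 genes compared over 17 sections. For Htra1 they were Triml2, the membrane-binding annexin Anxa2 and Metrnl, each at 0.92, and for Cebpb the integrin Itgav (0.93), the basement membrane gene Nid1 (0.93) and Tmbim1 (0.92). Cd52 had 1190002H23Rik (0.97), the ectonucleotidase Entpd1 (0.96) and Mpzl3 (0.95), all highest in section 19. Alpha globin had Itga3 (0.81), Cdk5rap2 (0.80) and Ncor1 (0.77), all highest in section 1, and Srgn had Cisd3 (0.75), B3gntl1 (0.72) and Abcf3 (0.71). For alpha globin and Srgn no gene exceeded 0.9.

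At E5.5, over 10 columns and 4897 genes, the nearest genes to Cryab were S100a8 (0.97), Hopx (0.96) and Cr1l (0.94), so Hopx appeared at both stages. Sec23b (0.99) and Asnsd1 (0.97) were near to Htra1, and Dph1Ovca2 (0.96), Manbal (0.94) and Nagpa (0.93) were nearest to Cd52. For Srgn they were Xpnpep1, Ankrd13a and Maea, each at 0.97, and for alpha globin Smg6 (0.98), Jub (0.94) and Trappc9 (0.92), all highest in section 1. At E5.25, over 7 sections and 4418 genes, Htra1 had Gsta1, Ppib and Adat2, at 0.998, 0.998 and 0.997, and Srgn had 0610007C21Rik (0.99), Cacfd1 (0.99) and Tead4 (0.98). With so few columns many genes fit closely, 496 of them above 0.9 for Htra1 at E5.25.

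Whether other genes of maternal cells moved in the same direction was asked with 5 lists that hold none of the members: decidual stroma, stromal matrix, red blood cell, leukocyte and endothelium, 94 symbols in all. The lists too were chosen with earlier results of these data known. Their counts are therefore set beside those of all genes and are not an independent check. Every gene at an FPKM of 1 in at least 2 sections was fitted as a line in section number, each stage alone, with limma and Benjamini-Hochberg adjustment at 0.05. At E5.75, 9 of the 30 maternal list genes tested rose with section number and 0 fell (limma, 14 and 0 at an unadjusted p under 0.05), while 13 further rows did not pass the filter. Over all 11149 genes tested, 2108 rose (18.9%) and 231 fell (2.07%), and the median change was 1.005 for the list genes, against 0.80 for all genes. With quantile normalization the median of all genes was 0.16, 845 genes rose, 500 fell, and 3 list genes rose.

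The 9 were spread over the lists. In decidual stroma, 3 of 11 rose: Prl8a2, the decidual prolactin-related protein, by 4.60 ± 1.29 (limma adjusted p = 0.0146), the cytokine Il15 by 1.86 ± 0.62 (adjusted p = 0.0355) and the steroid-making enzyme Cyp11a1 by 1.06 ± 0.36 (adjusted p = 0.0364), with a list median of 0.95. Prl8a2 was 6.17 in section 14, 5.10 in section 18 and 7.46 in section 19, but also 3.90 in section 3. It lost its call in 2 of 25 alternatives, without section 19 (limma adjusted p = 0.0580) and with quantile normalization (limma adjusted p = 0.0775). Il15 was above 0 only in sections 16, 17 and 19, and Cyp11a1 only in sections 14 and 16 to 19, at up to 1.65. Il15 lost its call in 7 of 24 alternatives, among them without section 2, 16, 17 or 19 (adjusted p = 0.151 without section 19). Cyp11a1 lost it in 8 of 24, among them without section 2, 16, 18 or 19 (adjusted p = 0.127 without section 19). In endothelium, 3 of 6 rose, with a list median of 1.99: the vascular cadherin Cdh5 by 4.48 ± 0.82 (adjusted p = 0.000607), Pecam1 by 2.61 ± 0.75 (adjusted p = 0.0171) and Eng by 1.58 ± 0.50 (adjusted p = 0.0267). Cdh5 was 5.89 in section 19 and 4.47 in section 18, and it kept its call under all 25 alternatives run. Without section 19, Pecam1 had an adjusted p of 0.0672, and Eng lost its call in 6 of 24 alternatives, among them without section 2, 17 or 18 (adjusted p = 0.0671 without section 17).

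Leukocyte genes gave 2 of 3, Lcp1 by 3.22 ± 0.84 and Arhgdib by 2.24 ± 0.65 (limma adjusted p = 0.00942 and 0.0180), both regulators of the cytoskeleton in blood cells, with a median of 2.24. Both lost the call with quantile normalization and with detected genes as a covariate, and Arhgdib also without sections 1 and 2. That was 2 of 25 alternatives for Lcp1 (limma adjusted p up to 0.159) and 3 of 24 for Arhgdib (up to 0.131). The red cell list gave 1 of 4, the transcription factor Gata1, by 3.38 ± 0.89 (adjusted p = 0.00968), with a median of 0.46. With detected genes as a covariate Gata1 lost its call (limma adjusted p = 0.213). Gata1 was highest in sections 17 and 18, at 4.43 and 4.50, and 0 in section 19, where Cryab, Cebpb and Cd52 had their highest values. None of 6 stromal matrix genes passed (limma, 1 at an unadjusted p under 0.05), with a median of 0.73, and the genes of that list with the highest single values were Timp3 and Des, at 4.86 and 4.66 in section 14. For comparison, 15 of 17 trophoblast genes rose with a median of 6.41, and 9 of 11 epiblast genes fell.

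**Figure D4:**
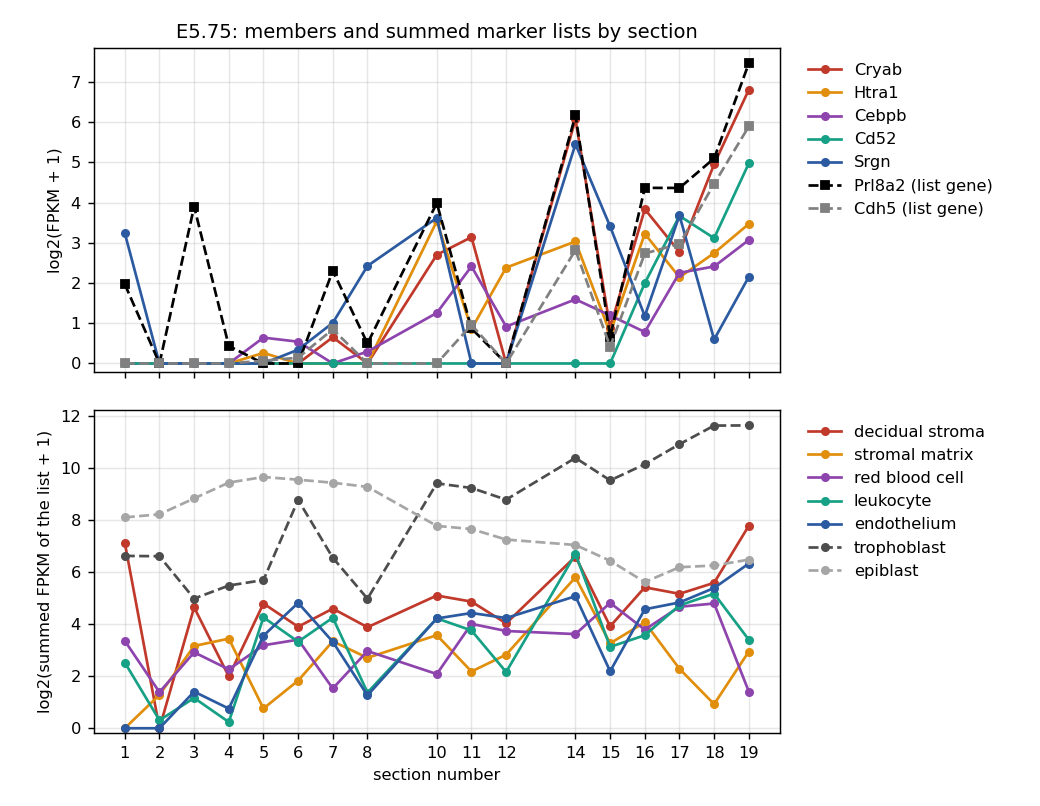
Upper panel, log2(FPKM + 1) of 5 members (Cryab, Htra1, Cebpb, Cd52 and Srgn) and of the list genes Prl8a2 and Cdh5 by section of E5.75. Lower panel, log2 of the summed FPKM of each maternal list (solid) and of trophoblast and epiblast (dashed): the trophoblast sum reaches 3189 FPKM in section 19, where Cryab is 6.81 and Prl8a2 7.46.

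At E5.5, 2 of 22 maternal list genes rose and 0 fell (limma, 5 and 1 at an unadjusted p under 0.05), and 26 further rows did not pass the filter. Over all 8251 genes, 2332 rose (28.3%) and 215 fell (2.61%), so the list's 2 in 22 lay under the background, and the median change was 0.78 for the list genes, against 1.22 for all genes. With quantile normalization 844 rose and 324 fell, with a median of 0.44. The 2 were leukocyte genes, of which 6 were tested with a median change of 1.47: S100a8, a calcium-binding protein of neutrophils, by 8.26 ± 1.27 (adjusted p = 0.000775) and Lcp1 by 3.84 ± 0.82 (adjusted p = 0.00336). S100a8 was 0 in sections 1, 2 and 4, 3.03 in sections 5 and 6, 6.02 in section 7, 8.59 in section 9 and 6.44 and 6.84 in the parts of section 10. With detected genes as a covariate neither passed, nor did any other of the 8251 genes, and the changes were 9.48 for S100a8 and 3.34 for Lcp1 (adjusted p = 0.829 for both).

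In the lists without a call at E5.5, the highest single values sat mainly in section 1, the library with the most Rn45s among the sections. Hand2, a transcription factor of decidual stroma, was 5.69 there, the muscle and stromal filament Des 6.74, the endothelial transcription factor Erg 4.73, and the red cell gene Slc25a37 4.84. Other examples were Prl8a2 at 3.77 in section 9, the matrix protease Mmp2 at 3.28 in section 2 and Egfl7 at 3.64 in section 9. The median changes were 0.89 in 5 decidual stroma genes, -1.70 in 3 stromal matrix genes, 0.61 in 4 red cell genes and 0.67 in 4 endothelial genes. Section 1 of E5.75 likewise held Hand2 at 5.44 and Tdo2, a tryptophan enzyme of decidua, at 6.45. The VE libraries and these sections were high in visceral endoderm genes, with a summed FPKM of 408 (section 6) and 1250 (section 7) in VE, 884 in section 1 of E5.5 and 305 in section 1 of E5.75. Other lists were higher still in the VE library of section 6, with 613 for trophoblast and 426 for parietal endoderm. Section 1 of E5.75 had 455 for parietal endoderm. In the VE library of section 7 the trophoblast sum was 436, and in section 1 of E5.5 the parietal endoderm sum was 202, both below visceral endoderm.

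At E5.25, 0 of 11 maternal list genes passed (limma, 2 rising and 2 falling at an unadjusted p under 0.05), 14 rows did not pass the filter, and no gene of the stromal matrix list was tested. Over all 7148 genes, 27 rose (0.378%), 2 fell (0.028%), 2493 had an unadjusted p under 0.05, and the median change was 0.77 for the list genes, against 1.45 for all genes. Il15 was 5.96 and 6.54 and the oestrogen receptor Esr1 4.89 and 4.89 in sections 1 and 2, with 0 in the other 5 sections (limma adjusted p = 0.0577 for Il15). Those 2 sections held no member at an FPKM of 1. The decidual list genes Pgr, at 3.73, and Stra6, at 2.15, reached an FPKM of 1 only in section 1. Of the 13 decidual stroma rows, 4 reached that level in section 1 and 3 in section 2, against 6 in section 8. In the same table Gja1 reached 5.89 in section 4, S100a8 4.34 in section 7, Lcp1 3.88 in section 4, Egfl7 2.99 and Plvap 1.27 in section 8, Fech 2.10 in section 3, Des 1.85 in section 7 and Timp3 1.80 in section 2. The median changes were 0.72 in 7 decidual stroma genes and 3.21 in 2 leukocyte genes, with 1 gene each for red cells (-1.12) and endothelium (2.02).

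**Figure D5:**
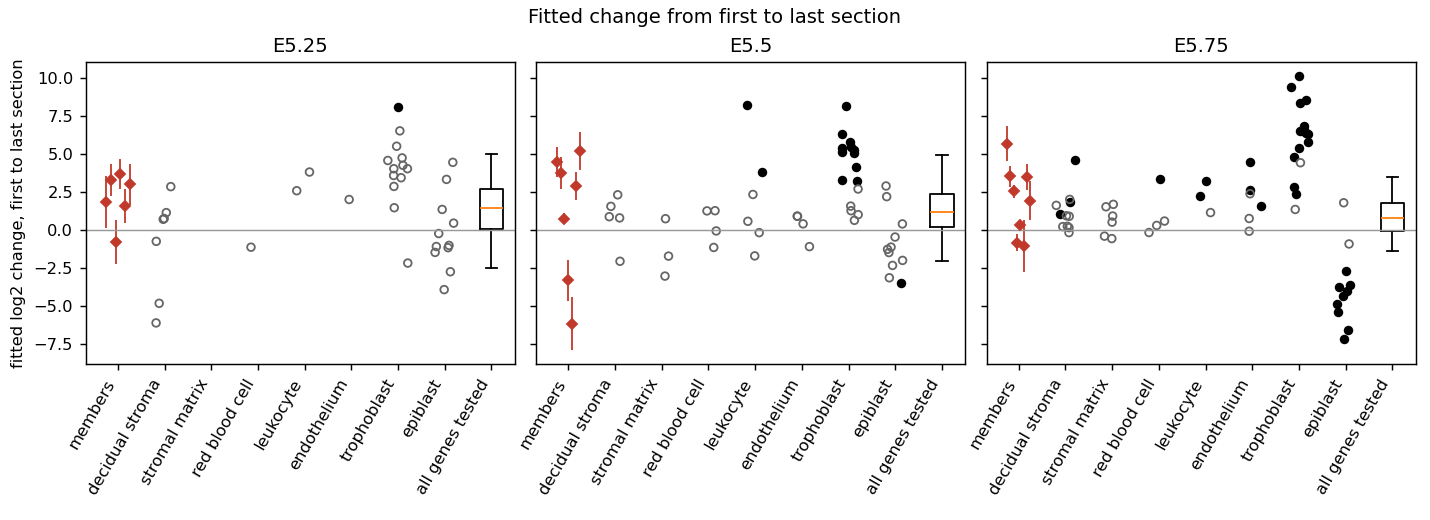
Fitted log2 change from first to last section at each stage for the members (red diamonds with standard errors, not tested), for the genes of each list (filled where the limma adjusted p was under 0.05, open otherwise) and for all genes tested (box from the first to the last quartile, whiskers from percentile 5 to 95, line at the median). At E5.75 the medians of the maternal lists lie between 0.46 and 2.24, that of all genes at 0.80 and that of the trophoblast list at 6.41.

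Some genes that define these cell types were looked up after their values were seen. The pan-leukocyte gene Ptprc had a row only at E5.5, where its highest value was 0.67, and the macrophage genes C1qa, C1qb and C1qc had none at any stage. Other leukocyte list genes did pass an FPKM of 1 at E5.5. Laptm5 was 2.78 and Cybb 1.40 in section 2, Csf1r 1.32 in section 7 and Cd53 1.20 in part A of section 10. Coro1a, at up to 0.65, and Gzma, at 0, did not. Tyrobp was 1.61 in section 12 of E5.75 and had no row elsewhere. The main collagen of stroma, Col1a1, had a highest value of 1.29, in section 14 of E5.75, and Col3a1, Lum and Postn were without a row apart from Postn at 1.28 in section 2 of E5.75. Of the 26 leukocyte symbols, 9 had a row at E5.75, 12 at E5.5 and 3 at E5.25, and of the 16 stromal matrix symbols 9, 7 and 2. The summed FPKM of the leukocyte list ranged from 0.181 to 103 over the E5.75 sections and was 0 in both VE libraries. That of the decidual stroma list ranged from 0 in section 2 to 219 in section 19, with 138.8 in section 1. It was 0 in the VE library of section 6 and 102.7 in that of section 7. At E5.25 the decidual stroma sum was 105.5 in section 1, 122.9 in section 2, 10.7 in section 3 and 58.3 in section 4. It was 8.213 in section 6, 8.604 in section 7 and 21.03 in section 8 of that stage.

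Among list genes, the ones closest to members at E5.75 were Cdh5, with r of 0.90 for both Cryab and Cd52, and Prl8a2, with 0.86 for Cryab (n = 17 sections). At E5.5 the closest was S100a8, with 0.97 for Cryab (n = 10 columns), against 0.33 at E5.75. For Cryab, r ran down to -0.35 (Mmp2) among the 24 list genes compared at E5.75 and to -0.39 (Fech) among 16 at E5.5. Cdh5, Prl8a2, Cryab and Cd52 were highest in section 19 of E5.75, where the trophoblast sum was highest too, at 3189. That sum was nearly the same in section 18, at 3177. There Cryab was 4.96 and Cd52 3.12, against 6.81 and 4.98 in section 19, and the decidual stroma sum was 47.2 against 219. Whether these genes come from maternal cells or from trophoblast cannot be told apart with these sections.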

How the data were processed

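The authors deposited 1 table per stage with log2 values of FPKM, read here as log2(FPKM + 1) because they start at 0. Tools named in the submitters' processing notes are Cufflinks 2.0.2 and TopHat2 2.0.4, with build mm10, but not their roles, the annotation or any further scaling. How parts A and B of the other E5.5 sections were joined into 1 column is not given in the sources used here. No column of values was left unused. The tables hold no counts, so the depth per library and its precision are unknown.

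The members and the lists were chosen with earlier results of these data known. Joined globin rows were matched to the list after the tables were seen. Genes that reached an FPKM of 1 in 2 or more sections were fitted in R 4.3.3 with limma 3.58.1 (2-sided moderated test with a variance trend, Benjamini-Hochberg within a stage, threshold 0.05) on a line from first to last section number. The parts of section 10 were averaged as 1 section number in the fits (9 numbers at E5.5) and kept apart elsewhere, and VE libraries were left out of the fits. Changes of members are least-squares estimates with their own standard errors. The fits were also run on simulated data with independent noise, where only genes of higher mean level were given a change. The outcome is not given here. That run does not cover genes near 0, such as Il15 and Cyp11a1 at E5.75, or shifts shared by a whole library. Lists of visceral and parietal endoderm, epiblast and trophoblast genes served as landmarks.

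Named were all members; per maternal list and stage up to 4 genes past the threshold or, with none, the 2 with the highest single value; the 3 genes most alike to each member (among genes with a highest FPKM of at least 5); and the 2 most abundant genes of other lists. Some genes that this rule names are not reported here. Genes that define leukocytes and stroma, other high genes of section 1, Esr1, Pgr, Stra6 and Hbb rows were chosen after their values were seen. Python 3.11.15 and matplotlib 3.10.9 made the figures. Alternatives were pseudocounts of 0.1 and 5, other filters, scalings, a covariate and leaving out sections.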

Additional observations from a re-analysis of the deposited data

Results flagged for a closer look

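Among the 13 sets of member values at E5.25 and E5.5, 4 had a single section far above the rest by Dixon's criterion, which chance meets in about 1 of 20 groups of normally spread values. That rate does not hold for sets made mostly of values at 0, such as Cryab (0 in 6 of 7 sections) and Dcn (0 in 5 of 7), so this is a description and not a test, and the sections differ in position and are not replicates. Cryab was 4.28 in section 7 of E5.25, where the next value was 0. Srgn was 4.27 in the same section, where the next value was 1.84. Dcn was 3.31 in section 3 of E5.25, where the next value was 0.14. Hoxa10 was 5.08 in section 1 of E5.5, where the next value was 1.64. Section 7 of E5.25 also held Htra1, alpha globin and Cd52 at an FPKM of 1, with 5636 genes detected, and section 1 of E5.5 had 2288 genes detected.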

How the results depend on the processing

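At E5.25, against 29 genes along the sections, 1006 passed with a pseudocount of 0.1, 877 with a filter at an FPKM of 5, and 0 with a pseudocount of 5, without a filter, with quantile normalization or with detected genes as a covariate; leaving out each section gave 3 to 818 (185 without section 2, 505 without section 3, 818 without section 4, 3 without section 6, 7 without section 7 and 102 without section 8). Maternal list genes numbered 0, with 4 at a pseudocount of 0.1 (Il15 and Esr1 falling, Lcp1 and Wnt6 rising), 2 with the filter at 5 and 0 to 3 on leaving out a section. At E5.5, against 2547 genes, 1476 passed with a common sum without Rn45s, 1168 with quantile normalization, 0 with the covariate, 309 without sections 1 and 2 (an alternative chosen after seeing the data) and 1703 to 2584 on leaving out each section. Maternal list genes numbered 2, with 5 at a pseudocount of 0.1, 0 with the covariate and 2 to 4 on leaving out a section, of which the 4 came without section 1, with Laptm5 and Mmp2 falling. At E5.75, against 2339 genes, 1345 passed with quantile normalization, 624 with the covariate, 1407 without sections 1 and 2 and 1677 to 2487 on leaving out each section. Maternal list genes numbered 9, with 5 under the filter at 5, 3 with quantile normalization, 4 with the covariate, 5 without sections 1 and 2 and 6 to 10 on leaving out a section. At a pseudocount of 0.1 those 9 kept their call, and Angpt2, Egfl7 and Pdgfra were called as rising too. The cause was not tested.

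Of 257 alternative values of called list genes, 33 lost the call and none changed direction, and of 368 of member changes, 56 moved by more than the residual SD and 7 changed sign, for Dcn and Cd52 at E5.25, Hoxa10 at E5.5 and E5.75, and alpha globin at E5.75. Without section 7, Cryab at E5.25 changed by 0. Of 52 alternative values of member pairs, 4 changed sign. No paired analysis was possible because VE was set beside sections 6 and 7 for members only, which carry no test, and each stage was fitted alone. Unknown depth limits every value listed at 0.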
